A study of Mus musculus with 3 samples.

Results

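Fatty acid and cholesterol synthesis was described here through 37 genes in sorted epidermal cells of mouse back skin. The genes were chosen by name: 17 of the fatty acid branch (chain synthesis, desaturation, elongation, activation and triglyceride formation), 13 sterol enzymes, 3 regulators, and 4 genes of lipid storage and uptake. Of these, 36 had a row in the files, and Mvd, a sterol enzyme gene, was not analysed here. A mean level of at least 1 over the 3 libraries was reached by 31 members, out of 11557 such genes among 49120 gene symbols.

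The animals of all 3 groups were wild type C57BL/6 mice, 7 weeks old, in the second telogen, the resting phase of the hair cycle. The epidermis was freed with thermolysin, and its cells were sorted by the surface proteins CD34 and Itga6 (integrin alpha 6). S denotes the suprabasal bulge stem cells (CD34+, Itga6 low), B the basal bulge stem cells (CD34+, Itga6 high), and N the non-stem cells (CD34-). RNA from 4 mice was pooled into 1 library for each population and amplified before sequencing. N is thus whatever epidermal cells lacked CD34, a mixture, and no group has a replicate or a test. Every difference below compares 1 library with 1 other library.

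The fatty acid branch starts from acetyl-CoA, which acetyl-CoA carboxylase and fatty acid synthase turn into palmitate. Desaturases, elongases and acyl-CoA synthetases then set the length, saturation and fate of the chains. The sterol branch turns acetyl-CoA into mevalonate, isoprenoids, squalene and cholesterol. Both branches are known targets of the SREBP transcription factors, which INSIG proteins hold back when sterols are plentiful. In skin, fatty acids and cholesterol are known as components of the permeability barrier and of sebum.

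Levels are deposited FPKM (fragments for each kilobase of a transcript and each M of fragments mapped, with M standing for mega) divided by a median-of-ratios factor for each library, called scaled FPKM. Log2 ratios compare scaled FPKM after a pseudocount of 1 was added to each value, which understates differences of low genes. Genes whose log2 ratio reached 1 or -1, a 2-fold difference on this scale, are called higher or lower. The summed deposited FPKM was 2375850 in S, 599014 in B and 765899 in N, and S thus stood apart in its total. The largest log2 ratio of any gene for S over N was 20.8, so a single gene held most of the total of S. With totals made equal without mitochondrial genes, the median log2 ratio of all genes for S over N was 0.15, beside 0.02 on the scale used. Had that single gene been counted in those totals, the median would have moved far more, so it was among the mitochondrial genes left out. The scaling factors lay closer together, at 0.929 for S, 0.987 for B and 1.11 for N. Plain ratios carry a 95% exact binomial interval from approximate fragment numbers, which covers counting error and leaves out amplification and differences between mice. Depth was 31.3 M fragments for S, 32.6 M for B and 35.4 M for N, as read from the steps between low values.

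Marker genes were set beside the members, since the populations differ in the cells they hold. The 6 outer bulge genes summed to 1008 in S, 1015 in B and 32.9 in N, and Cd34 itself, the gene of the sort, was at 214 in S, 144 in B and 0.20 in N. Cd34 transcripts were thus high in both CD34+ populations and near 0 in N. Postn, a matrix protein gene and the most abundant of the list, was at 653 in S, 650.3 in B and 23.5 in N. The 4 inner bulge genes summed to 403 in S, 85.9 in B and 0.822 in N, with Fgf18 at 280, 12.1 and 0.147. Outer bulge genes were thus high in both bulge libraries, and inner bulge genes highest in S. The 11 genes of differentiating epidermis summed to 884 in S, 1678 in B and 3680 in N, with Krtdap at 334, 1127 and 2850. In B and N that sum rests largely on Krtdap, whereas in S the largest part was Sbsn. Of the 11 genes 6 were highest in N, and 5 (Sbsn, Lor, Flg, Alox12b and Aloxe3, named after their values were seen) were highest in S, with Sbsn at 457 in S, 122 in B and 84.4 in N. The 4 interfollicular basal genes summed to 52.3 in S, 570.3 in B and 1227 in N, with Krt14 at 12.6, 275 and 585. All 4 interfollicular basal genes were lowest in S, and 3 were highest in N, with Thbs1 highest in B. The 5 upper follicle genes summed to 100.3 in S, 124 in B and 477 in N, with Defb6 at 9.31, 59.9 and 324. In N that sum rests largely on Defb6. Of the 5 genes 4 were highest in N. Plet1 was near level in S and N, at 76.1 in S, 42.6 in B and 78.4 in N. Gata6 was highest in S, at 3.75 in S, 0.960 in B and 2.44 in N. Plet1 and Gata6 were named after their values were seen. Langerhans and myeloid genes (8) summed to 17.9 in S, 13.6 in B and 34.3 in N, with H2-Aa at 4.48, 4.78 and 13.4. Of the 4 that passed the filter 3 were highest in N. Cd68 was highest in S, at 5.99 in S and 1.68 in N, with a log2 ratio of 1.38 for S over N. Of those under the filter, Cd207 was highest in S, and Ptprc, Adgre1 and Csf1r were highest in N. These genes other than H2-Aa were named after their values were seen. None of 5 endothelial genes reached a mean of 1, and Ramp2 was at 0.400 in S, 2.33 in B and near 0 in N.

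Of 8 sebaceous gland genes, Far2 alone passed the filter, at 0.979 in S, 2.14 in B and 3.92 in N. Mc5r, Awat1, Awat2, Dgat2l6, Cidea, Scd3 and Pparg were each at most 0.778 in any library. The adipocyte genes Plin1, Cidec, Lep, Retn, Cfd and Fabp4 were each at most 0.183, and Adipoq was listed at 0 in all 3 libraries. The summed sebaceous list was 2.52 in S, 3.69 in B and 4.94 in N, and the summed adipocyte list 0.173, 0.418 and 0.297.

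Suprabasal bulge cells (S), set against N, were lower in Fasn, Scd1, Elovl7, Acsl1, Acsl4 and Fabp5 and higher in Elovl5, while the sterol enzymes stayed within 2-fold on the scale used. By role, 1 of 2 genes of chain synthesis, 1 of 2 measured desaturases and 2 of 4 acyl-CoA synthetases were lower in S. Among all genes measured, 10.9% were at least 2-fold lower in S than in N and 9.54% at least 2-fold higher. The members had 6 of 31 lower (19.4%) and 1 higher (3.23%). In the fatty acid branch 5 of 14 measured genes were lower and 1 higher, with a median log2 ratio of -0.62, and in the sterol enzymes 0 of 12 in either direction, with a median of -0.18. The median over all genes was 0.02. No test stands behind these counts, which describe a pair of libraries. With a pseudocount of 5, Fasn (-0.92) and Acsl4 (-0.63) were under 2-fold. Over all genes the scale used gave 1103 higher and 1254 lower in S, and the values as deposited 856 and 1675. In bulk samples, fewer cells of a type and less RNA per cell cannot be told apart. Genes of the marker lists differed as well. Lower in S than in N were 4 of 4 measured interfollicular basal genes, 3 of 5 upper follicle genes and 5 of 8 of differentiating epidermis. Of the last list 1 was higher. The sorted basal bulge cells also held transcripts of the interfollicular basal list, with Krt14 at 275, Ifitm3 at 246, Ly6a at 34.8 and Thbs1 at 14.9 in B. That list thus does not single out cells outside the bulge. What part the cell make-up of each library had in the values of the members was not tested.

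Basal bulge cells (B), set against N, had few members past 2-fold. Fasn, Elovl7 and Hmgcs1 were lower in B, and Elovl5 was higher. Over all genes, 7.09% were at least 2-fold lower in B than in N and 7.25% higher, against 3 (9.68%) and 1 (3.23%) of 31 members. The fatty acid branch had a median log2 ratio of -0.45 and the sterol enzymes one of 0.34, beside -0.04 for all genes. Of 12 sterol enzymes, 10 had a positive log2 ratio, all under 2-fold, beside 46.5% of all genes on the scale used. With the values as deposited 9 did (Cyp51 turning negative), and on the same total 11 did (Mvk turning positive). The median over all genes moved as well, to -0.18 as deposited and 0.19 on the same total. The share of all genes with a positive ratio is not given for those scales. Hmgcs1, Idi1, Fdps and Fdft1 share sequence with other genes, so their levels are uncertain. With the values as deposited 5 members were lower and 1 higher in B, and on the same total without mitochondrial genes 1 was lower and 5 higher. All genes split in B as 838 higher and 819 lower on the scale used, 717 and 1097 as deposited, and 1179 and 541 on the same total. With a pseudocount of 5 the log2 ratios of Fasn (-0.87), Elovl7 (-0.97) and Hmgcs1 (-0.96) were all under the limit.

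Between the bulge layers, Scd2 was lower in S than in B, and it was the 1 measured member past 2-fold. Scd2 passed the filter through its level in B, with a mean of 1.36, and Fads1, just under the filter with a mean of 0.972, had a log2 ratio of -1.80. Over all genes, 5.94% were at least 2-fold lower in S than in B and 3.89% higher, against 1 (3.23%) and 0 of 31 members. The median log2 ratio was -0.19 for the fatty acid branch, -0.07 for the sterol enzymes and 0.06 for all genes. Acsl1 lay just under the limit at -0.995, and past it with each of the other 3 scalings and with a pseudocount of 0.1, between -1.03 and -1.12. Scd2 was at -0.55 with a pseudocount of 5.

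**Figure D1:**
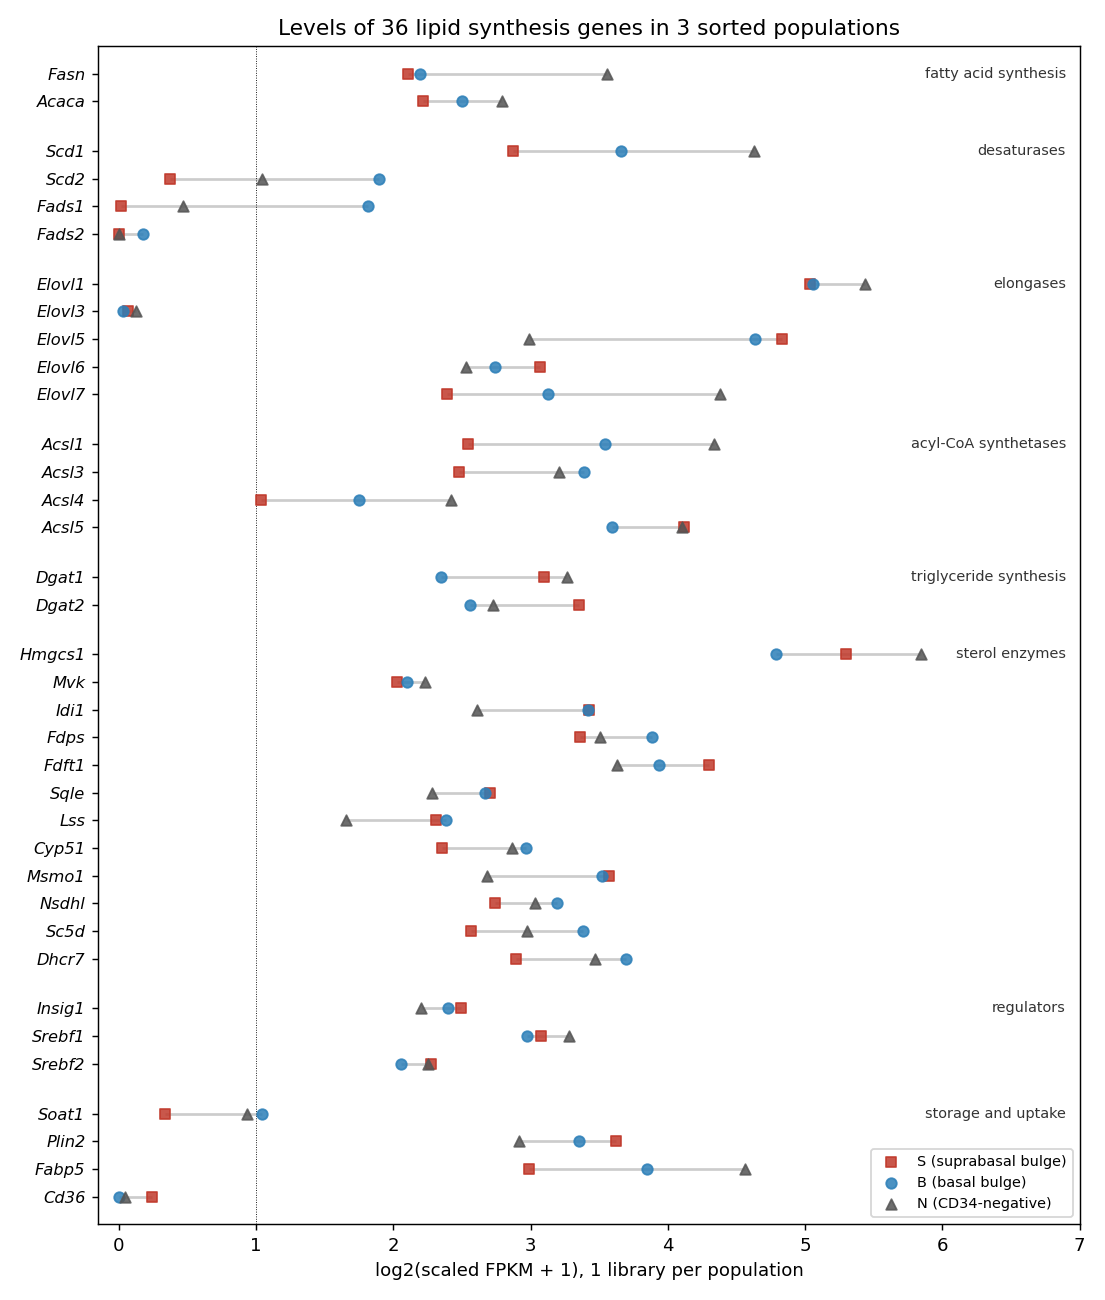
Levels of the 36 members with a row in the files, as log2(scaled FPKM + 1) on the x axis, with 1 point for each library (squares S, circles B, triangles N) and a grey line over their range. The dotted line marks a scaled FPKM of 1. Elovl5 stood higher in S and B than in N, while Fasn, Scd1, Elovl7 and Fabp5 stood highest in N.

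**Figure D2:**
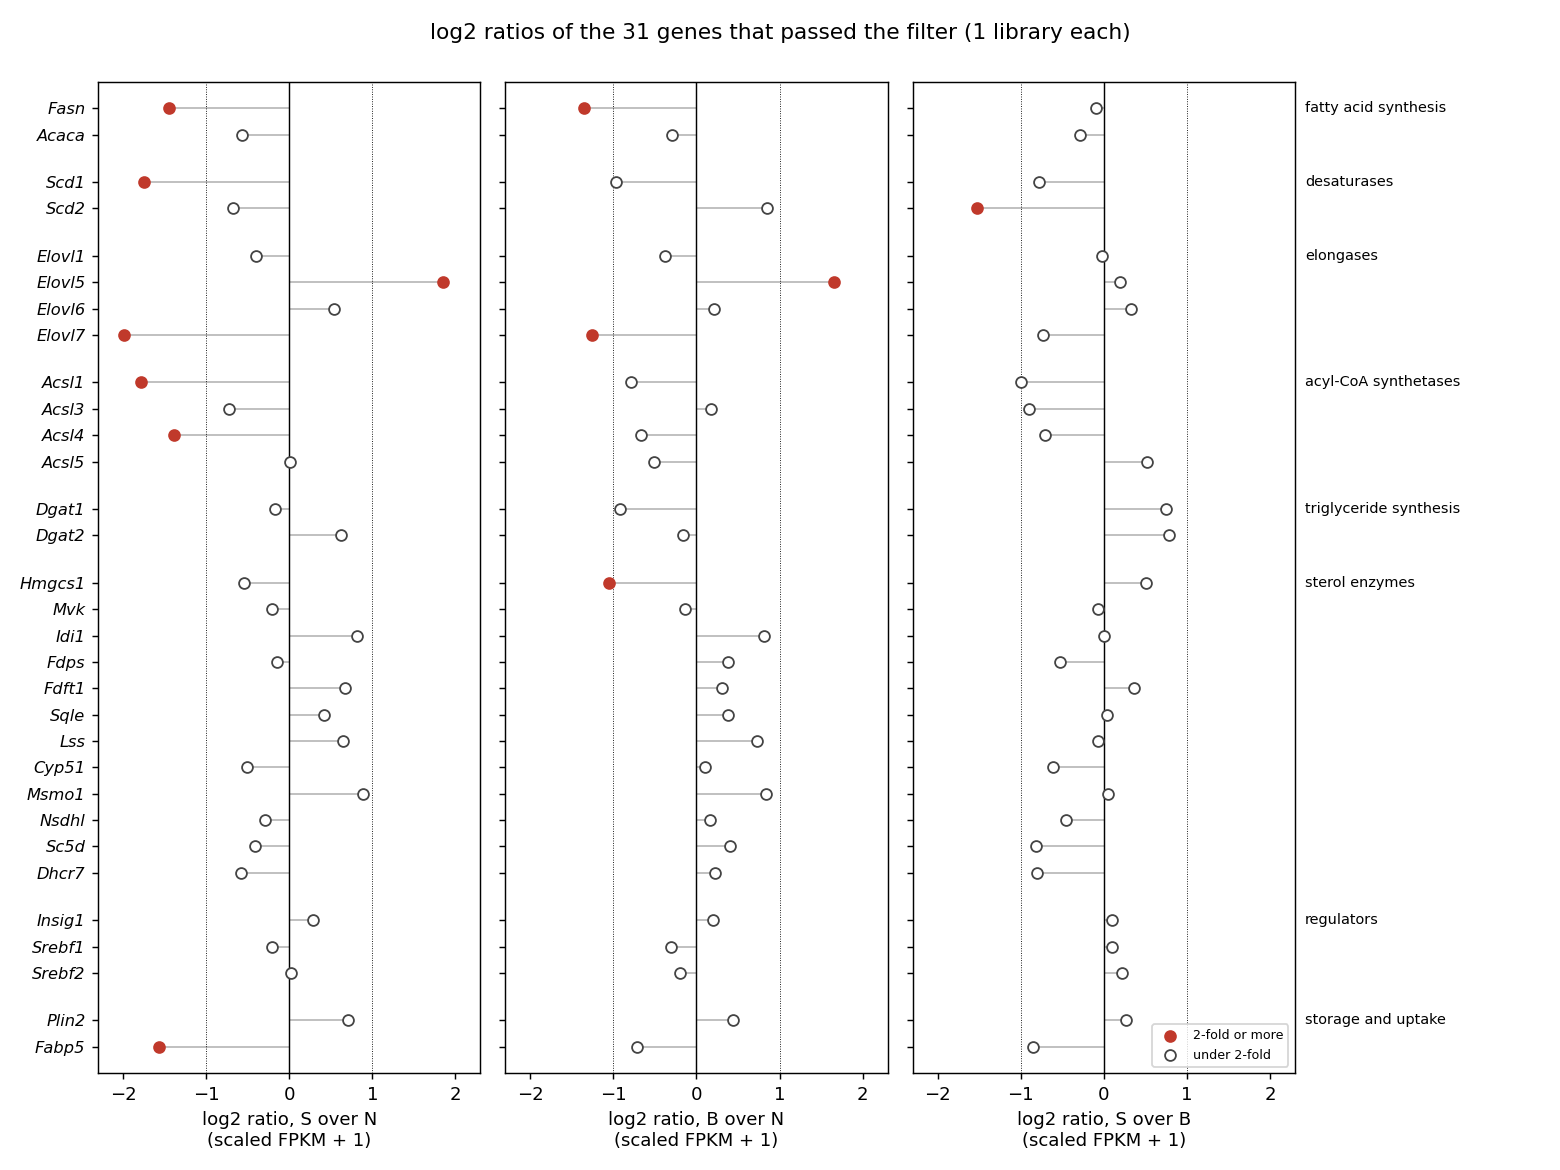
The log2 ratios of the 31 members that passed the filter, S over N, B over N and S over B from left to right, with filled points for differences of at least 2-fold on that scale and dotted lines at 1 and -1. Filled points numbered 7 for S over N, 4 for B over N and 1 for S over B.

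Chain synthesis was represented by Fasn and Acaca. Fasn encodes fatty acid synthase, which builds palmitate, and lies on chromosome 11 (120805846 to 120824547, minus strand, mm10, ENSMUSG00000025153). Its scaled FPKM was 3.31 in S, 3.59 in B and 10.7 in N. The bulge populations lay close together, with a ratio of 0.922 for S over B (interval 0.846 to 1.01), and both lay below N. The ratio was 0.308 for S over N (0.287 to 0.331) and 0.334 for B over N (0.313 to 0.357). Acaca encodes acetyl-CoA carboxylase, which supplies malonyl-CoA, and was at 3.65 in S, 4.65 in B and 5.92 in N. It had the same order of libraries as Fasn with log2 ratios of -0.57 for S over N and -0.29 for B over N. Of its 75-base windows, 47.4% also occur in transcripts of another gene, Gm5182, so its level is uncertain.

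The desaturases moved apart from each other. Scd1 encodes stearoyl-CoA desaturase, which makes monounsaturated chains, on chromosome 19 (44394451 to 44407709, minus strand, ENSMUSG00000037071). It was at 6.34 in S, 11.6 in B and 23.7 in N, falling into 3 separate levels. The ratio was 0.268 for S over N (0.249 to 0.288), 0.491 for B over N (0.465 to 0.519) and 0.545 for S over B (0.502 to 0.591). On the log2 scale with a pseudocount of 1, Scd1 was at -0.97 for B over N, just under the limit. Scd2, its neighbour on the same chromosome (44293676 to 44306864, plus strand, ENSMUSG00000025203), encodes a second stearoyl-CoA desaturase. Scd2 was far lower in level, at 0.293 in S, 2.73 in B and 1.07 in N. B was highest and S lowest, with about 46 fragments behind the value in S. The ratio was 0.107 for S over B (0.0769 to 0.144) and 2.56 for B over N (2.18 to 3.01). Scd1 shares 2.77% of its 75-base windows with other genes, Scd3 first among them, and Scd2 shares 1.80%.

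Fads1 and Fads2 encode the desaturases of polyunsaturated fatty acids and lie near each other on chromosome 19. Fads1 (10182888 to 10196870, plus strand, ENSMUSG00000010663) had a mean of 0.972, just under the filter, and enters no count. It was at 0.0100 in S, 2.52 in B and 0.384 in N, or about 1, 281 and 52 fragments. Fads1 was thus highest in B, with a single fragment in S. The ratio was 6.57 for B over N (4.90 to 9.06) and 0.00397 for S over B (9.96e-05 to 0.0222). Fads2 was at 0.133 in B, about 13 fragments, and was listed at 0 in S and N, so no ratio is given. Scd2, Fads1 and Fads2 were all highest in B, whereas Scd1 was highest in N.

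The elongases each lengthen chains of their own kind, and 2 of them went in opposite directions. Elovl5, which extends polyunsaturated chains, lies on chromosome 9 (77917364 to 77984519, plus strand, ENSMUSG00000032349). It was at 27.5 in S, 23.9 in B and 6.93 in N. Both bulge populations stood well above N, with ratios of 3.98 for S over N (3.66 to 4.32) and 3.45 for B over N (3.17 to 3.75). Elovl7, which extends long saturated chains, lies on chromosome 13 (108214404 to 108287105, plus strand, ENSMUSG00000021696). It was at 4.24 in S, 7.71 in B and 19.8 in N. N was highest and S lowest, with ratios of 0.214 for S over N (0.194 to 0.235), 0.389 for B over N (0.362 to 0.418) and 0.550 for S over B (0.492 to 0.613).

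Within a library the ratio of Elovl5 to Elovl7 was 6.49 in S, 3.09 in B and 0.349 in N, a measure that no scaling factor enters. The order of the pair was thus reversed between the bulge libraries and N. Elovl1, an elongase of very long chains known to be needed for the skin barrier, was the most abundant gene of the branch, at 31.8 in S, 32.3 in B and 42.3 in N. It stayed within 2-fold and made up 24.8% of the branch sum in S, 23.5% in B and 23.8% in N. Elovl6, which takes palmitate on to stearate, was at 7.39 in S, 5.68 in B and 4.77 in N, under 2-fold in each comparison. Elovl3, known in mice as an elongase of sebaceous glands, stayed at 0.0497 in S, 0.0224 in B and 0.0914 in N, or at most 7 fragments.

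The acyl-CoA synthetases activate free fatty acids for further use. Acsl1 (chromosome 8, 46471037 to 46536051, plus strand, ENSMUSG00000018796) was at 4.84 in S, 10.6 in B and 19.2 in N. Its 3 levels were well separated, with ratios of 0.253 for S over N (0.230 to 0.277), 0.556 for B over N (0.521 to 0.593) and 0.455 for S over B (0.411 to 0.503). Acsl4, known to prefer arachidonic acid, was at 1.05 in S, 2.36 in B and 4.35 in N, in the same order. Its ratio was 0.242 for S over N (0.203 to 0.286). Acsl3, known from lipid droplet formation, was at 4.58 in S, 9.45 in B and 8.23 in N, with S alone low. Acsl5 was at 16.3 in S, 11.0 in B and 16.2 in N, so here B was the low library. The ratio of Acsl1 to Acsl5 within a library was 0.297 in S, 0.964 in B and 1.18 in N.

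Dgat1 and Dgat2 encode the enzymes of the last step of triglyceride formation. Dgat1 was at 7.55 in S, 4.08 in B and 8.61 in N. Dgat2 was at 9.20 in S, 4.90 in B and 5.61 in N. Both were lowest in B, with plain ratios of 1.85 (1.58 to 2.17) and 1.88 (1.64 to 2.14) for S over B, under 2-fold. For B over N the plain ratio of Dgat1 was 0.474 (0.408 to 0.550), with a log2 ratio of -0.92. Of 14 measured genes of the branch, 5 had a positive log2 ratio for S over B, beside 57.0% of all genes. They were Dgat1, Dgat2, Elovl5, Elovl6 and Acsl5.

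Sterol enzymes are given in the order of the pathway as far as Lss, and the later ones are grouped by their levels. Hmgcs1 encodes the synthase that makes HMG-CoA and lies on chromosome 13 (119690462 to 119708086, plus strand, ENSMUSG00000093930). It was at 38.3 in S, 26.6 in B and 56.3 in N, the highest level of any member in S and N, while Elovl1 was higher in B. N was highest and B lowest, with ratios of 0.680 for S over N (0.654 to 0.707) and 0.472 for B over N (0.452 to 0.493). The log2 ratio for B over N was -1.06, and it was -0.77 on the same total without mitochondrial genes and -0.96 with a pseudocount of 5, both under the limit. An antisense gene, Gm48342, overlaps 12.1% of its exon bases, so reads of the pair could be told apart there only if counting used strand, which is not given in the sources used here.

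Mvk, the mevalonate kinase gene, was at 3.08 in S, 3.29 in B and 3.70 in N, all within 2-fold. Idi1, which makes the active isoprenoid unit, was at 9.76 in S, 9.69 in B and 5.09 in N. Idi1 was thus nearly equal in the bulge libraries, with a ratio of 1.92 for S over N (1.73 to 2.13) and 1.90 for B over N (1.72 to 2.11). Fdps, which makes farnesyl diphosphate, was at 9.26 in S, 13.8 in B and 10.4 in N. Fdft1, the squalene synthase gene, was at 18.7 in S, 14.3 in B and 11.4 in N. Idi1, Fdps and Fdft1 share 29.1%, 80.4% and 25.4% of their 75-base windows with other genes, Gm13502, Gm43738 and Ctsb first among them, and their levels are uncertain.

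Squalene is closed into the sterol ring by Sqle and Lss. Sqle, the squalene epoxidase gene, was at 5.52 in S, 5.34 in B and 3.86 in N. Lss, the lanosterol synthase gene, was at 3.96 in S, 4.21 in B and 2.16 in N. Both were lowest in N, with ratios for B over N of 1.38 (1.21 to 1.58) and 1.95 (1.72 to 2.22). Msmo1, which removes methyl groups from the ring, was at 10.9 in S, 10.5 in B and 5.43 in N, and had the highest log2 ratio of the sterol enzymes, 0.89 for S over N and 0.84 for B over N. Without a pseudocount its plain ratio was 2.01 for S over N (1.78 to 2.27), at the 2-fold limit.

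The other late enzymes had S as their lowest library. Cyp51, the lanosterol demethylase gene, was at 4.11 in S, 6.81 in B and 6.28 in N. Nsdhl, a sterol dehydrogenase gene, was at 5.68 in S, 8.12 in B and 7.17 in N. Both were near level in B and N. Sc5d, a sterol desaturase gene, was at 4.94 in S, 9.43 in B and 6.87 in N. Dhcr7, which encodes the reductase of the last step of one route to cholesterol, was at 6.42 in S, 11.9 in B and 10.1 in N. For S over B their ratios lay between 0.523 (Sc5d, 0.477 to 0.573) and 0.700 (Nsdhl, 0.612 to 0.801), all under 2-fold on the log2 scale used.

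The 12 sterol enzymes together summed to 121 in S, 124 in B and 129 in N. Without Hmgcs1 the sum was 82.4 in S, 97.4 in B and 72.4 in N. Hmgcs1 made up 31.7% of the sum in S, 21.4% in B and 43.8% in N. The 17 genes of the fatty acid branch summed to 128 in S, 137 in B and 178 in N. The ratio of the fatty acid sum to the sterol sum was 1.06 in S, 1.11 in B and 1.38 in N, a quantity free of the scaling factors. Among genes that passed the filter, 8 of 14 of the fatty acid branch were highest in N, against 2 of 12 sterol enzymes and 40.4% of all genes measured.

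**Figure D3:**
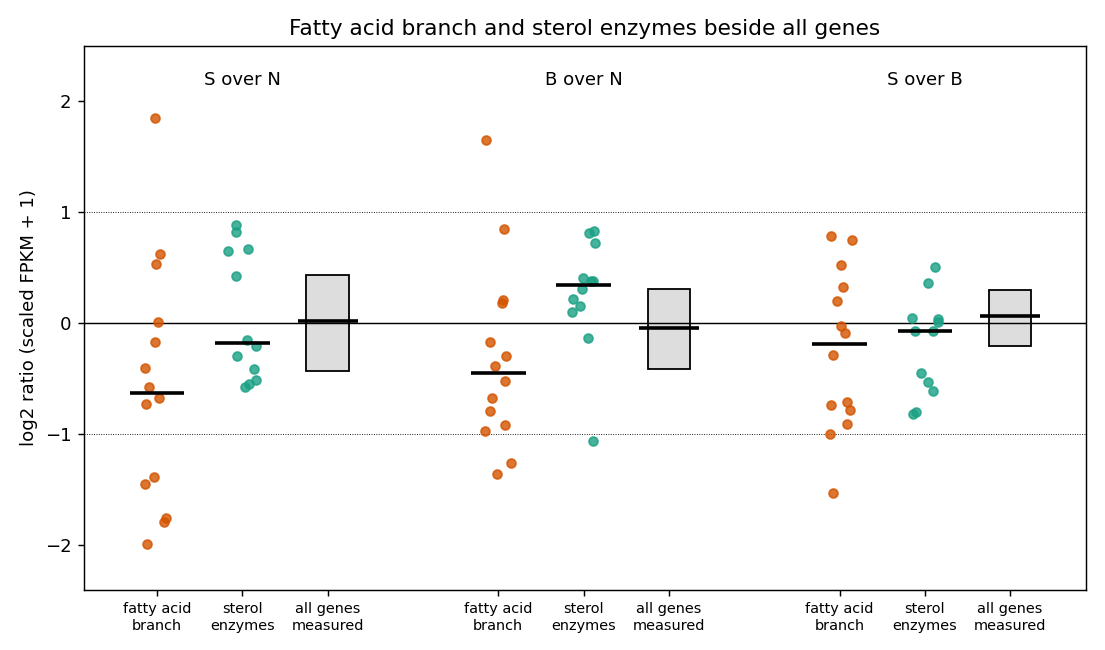
The log2 ratios of the 14 measured genes of the fatty acid branch (orange) and the 12 sterol enzymes (green) in each comparison, with a bar at the median and dotted lines at 1 and -1. The grey box runs from the lower to the upper quartile of all 11557 genes. The medians of the fatty acid branch lay at -0.62, -0.45 and -0.19, and those of the sterol enzymes at -0.18, 0.34 and -0.07, for S over N, B over N and S over B.

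Ratios between 2 members within a library were set side by side for pairs chosen after their values were seen. Hmgcs1 over Idi1 was 3.93 in S, 2.74 in B and 11.1 in N. Hmgcs1 over Msmo1 was 3.51 in S, 2.54 in B and 10.4 in N. Fasn over Sqle, a fatty acid gene over a sterol gene, was 0.600 in S, 0.672 in B and 2.78 in N. In all 3 pairs the bulge libraries lay near each other and N stood apart. Fasn over Hmgcs1, also a fatty acid gene over a sterol gene, was 0.0864 in S, 0.135 in B and 0.191 in N, with B between. Hmgcs1 and Idi1 share sequence with other genes, which makes their pairs uncertain. Scd1 over Scd2 was 21.7 in S, 4.26 in B and 22.2 in N, where B stood apart. Fasn over Acaca was 0.906 in S, 0.771 in B and 1.81 in N.

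**Figure D4:**
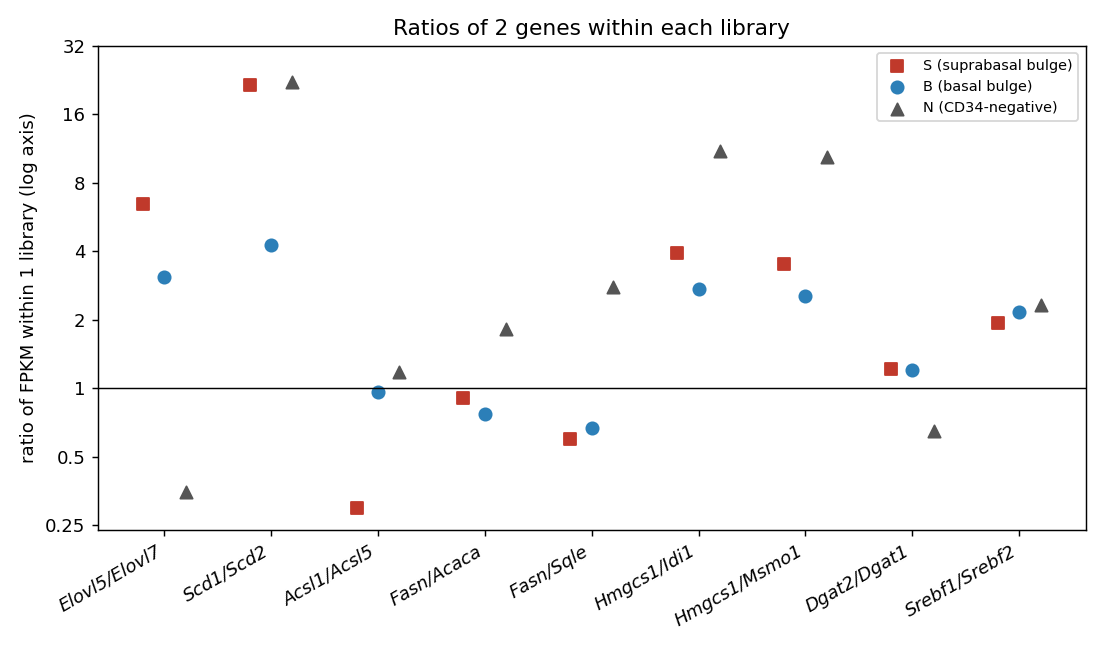
The FPKM of 1 gene divided by that of another within the same library, on a log axis, for 9 pairs, with squares for S, circles for B and triangles for N. The line marks equal levels. Elovl5 over Elovl7 lay above 1 in S and B and below 1 in N, and Srebf1 over Srebf2 lay between 1.94 and 2.32 in all 3.

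The regulators stayed within 2-fold. Srebf1, whose proteins are known mainly for driving fatty acid genes, was at 7.44 in S, 6.84 in B and 8.73 in N. Srebf2, known mainly for driving sterol genes, was at 3.83 in S, 3.15 in B and 3.77 in N. Insig1, which encodes a protein that retains the SREBP precursors in the endoplasmic reticulum, was at 4.64 in S, 4.28 in B and 3.61 in N. Their log2 ratios ran from -0.31 to 0.29 over the 3 comparisons. The levels are of transcripts, and the processed form of the SREBP proteins was not measured.

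Of the genes for storage and uptake, Fabp5 alone passed 2-fold. It encodes the epidermal fatty acid binding protein and lies on chromosome 3 (10012548 to 10016607, plus strand, ENSMUSG00000027533). It was at 6.95 in S, 13.4 in B and 22.6 in N, in the order of Scd1, Elovl7 and Acsl1. Its ratio was 0.308 for S over N (0.262 to 0.359) and 0.593 for B over N (0.527 to 0.666). Fabp5 shares 12.1% of its 75-base windows with other genes, Gm6166 first among them. Plin2, a lipid droplet coat gene, was at 11.3 in S, 9.21 in B and 6.55 in N, under 2-fold. Soat1, which esterifies cholesterol, was under the filter at 0.263 in S, 1.06 in B and 0.915 in N, with S lowest. Cd36, a fatty acid uptake receptor gene, was at 0.183 in S, listed at 0 in B and at 0.0300 in N, or at most 18 fragments.

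Promoter windows of members that differed are shown because several are known SREBP targets. The windows run from 250 bases before to 50 after the start, from RefSeq on GRCm38.p6, and 26 members have one or more in the table. Searched on both strands were TCACNCCAC, the core of the sterol regulatory element, CCAAT, the NF-Y box, and GGGCGG, the Sp1 box. Matches on either strand are in capitals. The Hmgcs1 window (chr13:119690101-119690400, plus strand) holds the sterol element core 137 bases before the start, and this RefSeq start lies upstream of the gene's start in the files. The second Acsl1 window (chr8:46490716-46491015, plus strand) holds it in reverse, starting 76 bases before the start. That window lies inside the gene. The first Acsl1 window (chr8:46470787-46471086), at the listed start of the gene, holds 0 sterol element cores and 7 Sp1 boxes, and is not printed. Fasn (chr11:120824498-120824797, minus strand) holds 3 CCAAT boxes, of which a pair on opposite strands overlap. Elovl5 (chr9:77917115-77917414, plus strand) holds 2, both in reverse, and Elovl7 (chr13:108214154-108214453, plus strand) none, but 3 Sp1 boxes.
Hmgcs1: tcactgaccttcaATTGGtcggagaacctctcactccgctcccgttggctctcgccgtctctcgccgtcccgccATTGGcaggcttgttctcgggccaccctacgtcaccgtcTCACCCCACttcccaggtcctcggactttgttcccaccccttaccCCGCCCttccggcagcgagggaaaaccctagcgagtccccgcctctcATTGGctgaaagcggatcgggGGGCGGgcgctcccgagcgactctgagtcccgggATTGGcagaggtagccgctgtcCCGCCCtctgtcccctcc
Acsl1: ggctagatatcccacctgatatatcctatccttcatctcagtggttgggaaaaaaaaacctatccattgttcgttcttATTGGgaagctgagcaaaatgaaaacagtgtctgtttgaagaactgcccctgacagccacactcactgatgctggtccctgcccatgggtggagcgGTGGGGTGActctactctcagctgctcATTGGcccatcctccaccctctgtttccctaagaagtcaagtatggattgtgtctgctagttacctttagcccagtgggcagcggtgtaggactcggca
Fasn: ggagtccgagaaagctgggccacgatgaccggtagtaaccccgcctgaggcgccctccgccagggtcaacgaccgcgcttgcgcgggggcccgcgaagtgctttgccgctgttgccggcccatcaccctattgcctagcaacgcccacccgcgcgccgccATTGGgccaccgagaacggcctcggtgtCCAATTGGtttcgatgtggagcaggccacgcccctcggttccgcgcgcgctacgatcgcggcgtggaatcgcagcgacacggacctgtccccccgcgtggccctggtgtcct
Elovl5: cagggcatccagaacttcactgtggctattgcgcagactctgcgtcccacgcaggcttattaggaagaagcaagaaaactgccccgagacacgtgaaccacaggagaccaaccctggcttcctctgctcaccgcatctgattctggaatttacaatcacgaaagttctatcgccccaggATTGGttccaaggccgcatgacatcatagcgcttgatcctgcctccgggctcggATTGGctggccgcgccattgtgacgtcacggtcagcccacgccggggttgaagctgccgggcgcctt
Elovl7: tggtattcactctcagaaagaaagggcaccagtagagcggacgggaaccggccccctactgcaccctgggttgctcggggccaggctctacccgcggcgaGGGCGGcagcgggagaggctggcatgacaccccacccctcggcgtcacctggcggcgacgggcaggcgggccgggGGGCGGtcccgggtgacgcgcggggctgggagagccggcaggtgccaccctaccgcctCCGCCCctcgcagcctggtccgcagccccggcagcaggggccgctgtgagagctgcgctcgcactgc

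The sterol element core was in 2 of 32 member windows, Hmgcs1 and Acsl1, and in 1.24% of all 32851 windows. The CCAAT box was in 9 of 11 windows of sterol enzymes and in 6 of 13 of the fatty acid branch. It was in 37.4% of all windows and in the same share of the 10115 windows of measured protein coding genes. The Sp1 box was in 10 of 11 windows of sterol enzymes and in 7 of 13 of the fatty acid branch, against 35.7% of all windows and 64.2% of those of measured protein coding genes. These matches describe letters in the windows shown and were not tied to the levels.

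Other genes of both pathways were taken from 6 lists of 85 genes, of which 49 passed the filter. In S against N, 12 of the 49 were lower and 4 higher, with a median log2 ratio of -0.23, beside 10.9% lower and 9.54% higher over all genes. In B against N, 5 were lower and 1 higher, with a median of -0.13, beside 7.09% and 7.25% over all genes. In S against B, 4 were lower and 3 higher, with a median of -0.15, beside 5.94% and 3.89% over all genes.

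Of 11 measured other genes of fatty acid supply and chain building, 5 were lower and 1 higher in S than in N, with a median of -0.88. N was the highest library for 8 of them and S for 3 (Tecr, Slc25a1 and Hacd1, named after their values were seen), with Tecr, the most abundant, at 252 in S, 216 in B and 247 in N. Acsbg1, an acyl-CoA synthetase gene, was at 4.91 in S, 10.4 in B and 25.7 in N. Elovl4, which makes the ultra-long chains of skin ceramides, was at 4.80 in S, 11.6 in B and 23.1 in N. Both were highest in N, with B between. Me1, the malic enzyme that supplies NADPH, was at 1.70 in S, 6.28 in B and 10.6 in N. Hacd2, a dehydratase of the elongation cycle, was at 6.04 in S, 8.31 in B and 16.9 in N. All 4 had the order of Scd1, Elovl7, Acsl1 and Fabp5, with N highest and S lowest. The barrier lipid transporter gene Abca12, of the differentiating epidermis list and named after its values were seen, had the same order, at 3.19 in S, 11.6 in B and 24.4 in N.

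The other sterol enzymes, 8 measured, had 1 gene lower and 0 higher in S than in N, and the same counts in B against N. Between the layers, Pmvk, the phosphomevalonate kinase gene, was higher in S, at 14.8 in S and 5.06 in B, with 7.85 in N. Ggps1, which makes the geranylgeranyl donor, was at 13.7 in S, 10.1 in B and 7.58 in N, and Ebp, a sterol isomerase gene, at 8.09, 6.28 and 5.80. Tm7sf2, a sterol reductase gene named after its values were seen, was the low gene in both comparisons, at 0.973 in S, 1.19 in B and 4.78 in N.

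Of 9 measured genes for sterol control, uptake and transport, S against N gave 3 lower, B against N 2 lower, and S against B 1 lower, with 0 higher in each. Scap, the SREBP escort, was at 8.05 in S, 6.36 in B and 14.1 in N. Mbtps2, a protease that releases SREBP, was at 5.44 in S, 6.46 in B and 13.3 in N. Npc1, which exports cholesterol from lysosomes, was at 17.1 in S, 11.3 in B and 31.5 in N. These 3 genes were highest in N, as was Insig2, a relative of Insig1, at 16.0 in S, 11.3 in B and 19.0 in N, which stayed within 2-fold.

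Among 11 measured genes of acyl transfer and glycerolipid synthesis, 1 was higher and 1 lower in S than in N, and 0 passed 2-fold in B against N. Slc27a1, a fatty acid transport gene, was at 13.6 in S, 6.11 in B and 5.34 in N, and Agpat4, an acyltransferase gene, at 20.4, 9.77 and 10.8, both highest in S. Far1, which makes fatty alcohols, was highest in B, at 15.9 in S, 25.5 in B and 12.8 in N, and Agpat3 was at 13.8, 9.89 and 16.5. Of 3 measured lipid droplet genes, 1 was higher in S than in N, namely Pnpla2, the triglyceride lipase gene, at 8.98 in S, 3.90 in B and 3.32 in N. Plin3 (7.20 in S, 5.23 in B and 7.69 in N) and Hilpda (3.37, 5.91 and 5.82) stayed within 2-fold.

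Of 7 measured nuclear receptor and cholesterol efflux genes, S against N gave 1 higher and 2 lower, B against N 1 higher and 1 lower, and S against B 1 lower. The gene higher in B was Abca1, the cholesterol exporter, named after its values were seen, at 2.20 in S, 9.70 in B and 2.65 in N. Apoe, the carrier of exported lipid, was at 644 in S, 976 in B and 779 in N, and Mlx at 6.58, 7.79 and 8.39, both within 2-fold.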

How the data were processed

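Per the labels' protocols, RNA of 4 mice per sorted population was pooled, amplified from poly(T) and random primers, and sequenced as paired reads of 75 bases. The submitters' processing notes name TopHat2 2.0.12, Cufflinks 2.1.1, DESeq2 and mm10, with no role given, and the annotation is not given in the sources used here. The authors deposited FPKM per Ensembl gene (49452 rows), named so per the file headers for N and S and inferred from the values for B. A gene name table gave symbols for 49109 rows and GENCODE M21 for others (49195 in all), and rows of 1 symbol were summed.

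Scaling used median-of-ratios factors (0.929 for S, 0.987 for B, 1.11 for N) over 18559 genes above 0 in every library, and genes under a mean of 1 were left out of counts. Fragment numbers are FPKM times depth times the length of the longest coding transcript (or the longest one), and are approximate. Depth was picked as the value that brought low values closest to whole numbers of fragments. At that depth 91.1% to 93.5% of them came within 0.1 of a whole number. The depth was fitted to the same values, so the 20% of a depth fixed beforehand is no fair comparison. Ratios under other scalings, pseudocounts and filters were computed as alternatives. The size rule was tried on simulated data that held counting error only, with changes placed in genes at a scaled FPKM of at least 5 in N. Amplification, differences between mice and changes in lower genes were not simulated, so the trial does not cover them. Sequence shared with other genes was counted over 75-base windows of GENCODE transcripts. Whether counting used strand is not given in the sources used here. The members and lists were chosen with earlier results of these data known. Named are all members, up to 4 genes of each other list with the largest log2 ratio and a mean of at least 5, the most abundant gene of each marker list, and all sebaceous and adipocyte genes. Python 3.11.15, numpy 2.4.6, pandas 2.3.3 and scipy 1.17.1 were used.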

Additional observations from a re-analysis of the deposited data

How the results depend on the processing

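No paired analysis was possible because each population has 1 library, and none could be left out in turn. Other scalings shifted the median log2 ratio of all genes to between -0.18 (as deposited) and 0.15 (same total without mitochondrial genes) for S over N, -0.18 and 0.19 for B over N, and -0.01 and -0.04 for S over B (0.03 with factors from protein coding genes), beside 0.02, -0.04 and 0.06 on the scale used. Over the alternatives and comparisons, 584 of 627 values of single members kept their direction and side of 2-fold, 8 dropped under 2-fold and 17 passed it. The other 18, all within 0.20 of 0 on the scale used, changed sign under another scaling, and 0 of those past 2-fold did.

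As deposited, the fatty acid median was -0.78 and the sterol median -0.39 for S over N, the fatty acid median -0.61 for B over N, and 5 members were lower for B over N and 2 for S over B. Of all genes, 9.46% were then lower for B over N and 6.27% for S over B. Over all genes a pseudocount of 5 gave 445 higher and 555 lower for S over N, 306 and 347 for B over N, and 190 and 277 for S over B. A pseudocount of 0.1 gave 1070 lower for S over B. On the same total, S over N had 2 members higher, beside 11.4% of all genes, and a fatty acid median of -0.43. On that scale B over N had 5 higher, 1 lower and medians of -0.094 (fatty acid) and 0.60 (sterol), and S over B had 4 lower and a fatty acid median of -0.39. Of all genes, that scale put 10.2% higher and 4.67% lower for B over N, and 6.96% lower for S over B. With factors from protein coding genes, 2 members were lower in S than in B, beside 6.10% of all genes. With a pseudocount of 0.1, B over N had 2 higher and 5 lower, S over B had 4 lower, and the fatty acid median for S over N was -0.76. Of all genes, 10.8% were then higher and 10.1% lower for B over N, and 9.26% lower for S over B. With a pseudocount of 5, 0 members were lower for B over N and for S over B, and the fatty acid median for S over N was -0.35. With no filter, 2 members were higher for B over N and 2 lower for S over B, and the fatty acid medians were -0.45 for S over N and -0.29 for B over N. Of all genes, 3.30% were then higher for B over N and 2.68% lower for S over B. With a mean of at least 5, the fatty acid medians were -0.40 for S over N and -0.022 for S over B, the sterol median for S over B was -0.45, and 0 members were lower in S than in B, beside 5.80% of all genes. Without the 6 members that share over 10% of their windows or exon bases, an alternative chosen after seeing the data, the sterol median for S over B was -0.26. The cause of these shifts was not tested. With 1 library a group, counting error is the only error these files allow, and low members such as Fads1 and Scd2 in S rest on few fragments.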
